A study of Mus musculus with 178 samples.

Results

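The comparison described here set the blood of non-responder mice on Day 9 against the blood of the same mice on Day 4. The 29 non-responders with a library on both days were chosen by the response and day in the sample labels and paired by the tag number of the mouse, which gave 58 of the 178 libraries of the series. A further non-responder with a Day 9 library and no Day 4 library among those analysed was left out. The study followed 45 C57BL/6J mice, young adults of both sexes, that carried 4MOSC1 cells, a carcinogen-induced mouse oral squamous carcinoma line, implanted orthotopically in the tongue or buccal mucosa. All of the mice, responders included, received an intraperitoneal antibody against PD-1 (clone RMP1-14), whose first dose fell after the Day 4 bleed and before the Day 9 bleed. Retro-orbital bleeds were collected in TRIzol, and bulk libraries were made from the polyadenylated RNA of whole blood. Day 4 is therefore the pre-treatment sample and Day 9 the first on-treatment sample, both after implantation of the tumor cells. No untreated or tumor-free arm was analysed here, so antibody treatment, tumor growth, a repeat bleed and time cannot be told apart. The label of non-responder covers mice with stable disease, which the labels do not set apart. For 1 mouse the label of the Day 17 library says responder while those of its other days say non-responder, and it was kept with the non-responders. Sex is not in the labels, and each mouse was compared with itself.

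Whole blood holds red cells, platelets and a mixture of leukocytes. Classical monocytes and neutrophils leave the bone marrow in larger numbers during inflammation and tumor growth, and the chemokine receptor Ccr2 carries monocytes out of the marrow. Naive T and B cells recirculate between blood and lymphoid organs, guided by receptors such as Ccr7, Cxcr5 and S1pr1. Interferons switch on a shared set of antiviral genes through a complex of transcription factors that binds an interferon-stimulated response element in promoters. PD-1, encoded by Pdcd1, is an inhibitory receptor of activated T cells, and its ligand PD-L1, encoded by Cd274, is found on many myeloid cells. In bulk RNA, fewer cells of a type and less RNA per cell cannot be told apart, and each level below is a share of the RNA of the whole sample.

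The 58 libraries held from 37027992 to 82208665 counts each. Haemoglobin genes took 68.7% to 87.4% of them on Day 4 (median 79.4%) and 69.3% to 84.1% on Day 9 (median 78.2%). The share rose in 15 of 29 mice, by a mean of 0.378 ± 6.51 percentage points (SD, n = 29), which a two-sided permutation test of the paired differences did not separate from 0 (p = 0.755). TMM factors ran from 0.389 to 1.91. The other genes together gave between 4656926 and 22177360 counts in a library. Markers of T cells, B cells, NK cells, monocytes and mature neutrophils were above 0 TPM in all 58 libraries, as blood should show, whereas the azurophil granule gene Mpo was at 0 TPM in 42 libraries, Krt5 in 28, Krt14 in 20 and Trp63 in 54. Levels are given as CPM, the counts of a gene relative to the total of its library after TMM scaling over all 178 libraries. Fold changes are on the log2 scale, Day 9 against Day 4, from edgeR's quasi-likelihood test with the mouse as a block, and a gene was called where its p-value, adjusted by the Benjamini-Hochberg method over all genes tested, did not exceed 0.05. These p-values weigh the mean change within mice against the spread of that change among these mice.

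Between Day 4 and Day 9, transcripts of myeloid cells became a larger share of the blood RNA of non-responders. Transcripts of T cells and B cells became a smaller one. Those of ribosomal proteins also fell over all mice, but unevenly between mice. Of 12537 genes tested, 6237 were called (49.7%), 3103 higher on Day 9 (24.8%) and 3134 lower (25.0%), around a median log2 fold change of 0.00076 over all genes. The higher genes moved further. With a change of at least 1.5-fold also required, 983 genes were higher and 157 lower, and the median log2 fold change of called genes was 0.39 for those higher and -0.24 for those lower. All 29 mice moved in the called direction for 235 of the higher and 127 of the lower genes. In 10 genes (0.0798%) every Day 9 library lay above every Day 4 library, and in 4 genes (0.0319%) every Day 9 library lay below. The first group included Tbc1d9, a Rab GTPase-activating protein, the membrane repair protein Myof, the transcription factor Trps1, Ms4a6d, the pyrin gene Mefv, Igsf6, the chemokine Ccl9, the kinase Slk and the predicted gene Gm49339. The second held Cad, which starts pyrimidine synthesis, Sept6, Ablim1 and B4galnt1. Tests on log2(TPM + 1) with limma called 1684 genes, 1028 higher and 656 lower. Of the genes tested, 1109 would not have passed the filter on low counts with the Day 4 libraries alone, so that passing could depend on Day 9. Such genes are given below by their levels only, and gene lists with more than 2 of them without counts of called members. Every count of called list members over all 29 mice is to be read beside the 24.8% higher and 25.0% lower of all genes. The lists were chosen with earlier results of these data known. Their counts therefore describe the lists and are not independent support for a change. Among genes named below, calls lost on log2(TPM + 1) included those of Cx3cr1, Irf1, Ifngr1, Ifngr2, Il21r, Ctla4, Entpd1, Cd27, Cd8a, Foxp3, Prf1, Klrb1c, Il2rb, Klrc2, Zeb2, Cxcr6, Jchain, Fcgr2b, Prpf19, Tfrc, Ifit1bl1, Mcm2, Mcm5 and Mcm7.

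**Figure D1:**
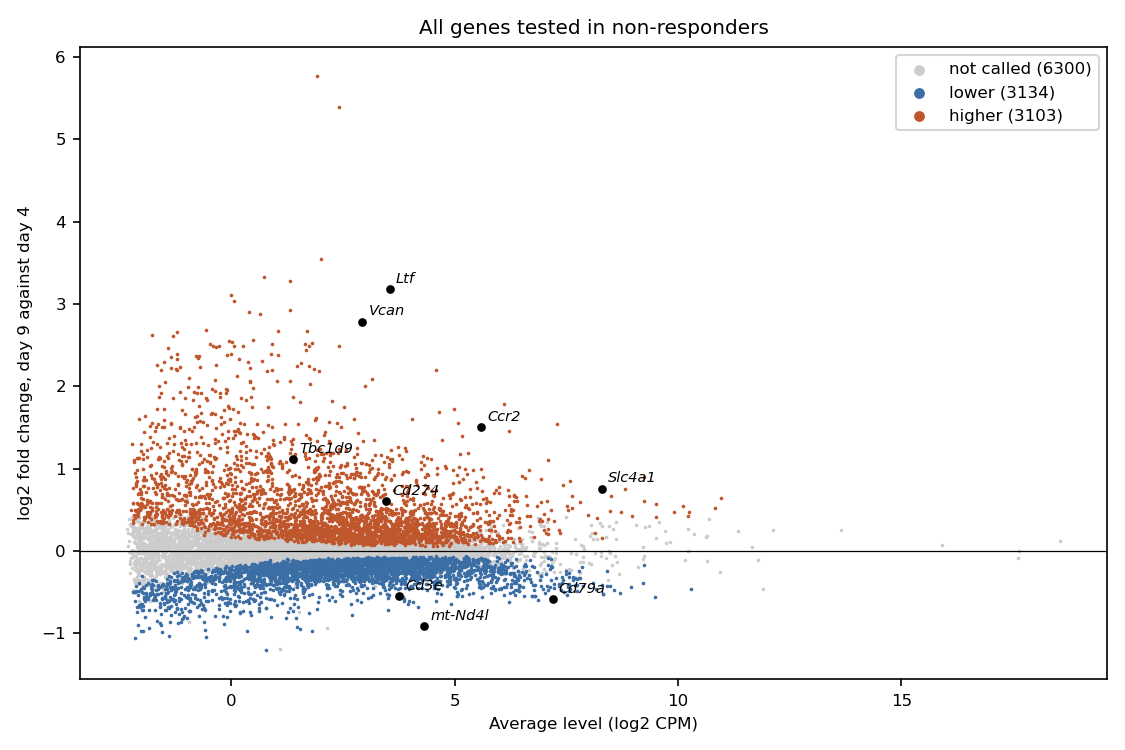
Average level (x axis, log2 CPM) and log2 fold change from Day 4 to Day 9 (y axis) of the 12537 genes tested in 29 non-responders, with one point per gene and colors for genes called higher, called lower or not called. Among the labelled genes Ltf lies highest, at 3.18 on the log2 scale, while the lowest of the lower genes, 1700047I17Rik2, lies at -1.20.

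Classical monocyte transcripts rose as a whole. All 23 members of the classical monocyte list that were tested were higher on Day 9, beside 24.8% of all genes, with a median log2 fold change of 0.93. Ccr2 (ENSMUSG00000049103.14, chr9:124101950-124113557, mm10), the receptor that draws monocytes from the marrow, ranged from 12.8 to 30.4 CPM (median 18.8) on Day 4 and from 29.0 to 97.6 CPM (median 53.0) on Day 9. A total of 28 of 29 Day 9 libraries exceeded the highest Day 4 library, and the level rose in every mouse by 1.51 ± 0.11 (log2 fold change ± SE; adjusted p = 8.14e-12). Vcan, the proteoglycan versican and a marker of inflammatory monocytes, ranged from 0.487 to 3.86 CPM (median 1.22) on Day 4 and from 2.58 to 32.0 CPM (median 9.12) on Day 9. Its change of 2.79 ± 0.22 (log2 fold change ± SE; adjusted p = 1.62e-11) was the largest among the monocyte markers and had the same direction in all 29 mice. Chil3, a chitinase-like secreted protein, rose by 1.40 ± 0.17 (log2 fold change ± SE; adjusted p = 3.60e-08), from medians of 15.4 to 36.7 CPM. The lysozyme gene Lyz2 rose in 27 of 29 mice, with medians of 243 to 418 CPM (log2 fold change 0.75, adjusted p = 3.98e-07). Smaller changes were seen for F13a1, the coagulation factor XIII A chain (log2 fold change 0.73), Csf1r, the receptor of the monocyte growth factor (log2 fold change 0.63), and the surface antigen gene Ly6c2 (log2 fold change 0.51, adjusted p = 3.65e-04). For Ly6c2 the days overlapped widely, and 7 of the 29 Day 9 libraries lay above all Day 4 libraries. The inhibitory receptor Sirpa (log2 fold change 0.87, adjusted p = 5.94e-11) and the matrix protein fibronectin, Fn1 (log2 fold change 1.46, adjusted p = 7.64e-11), rose in all 29 mice. Taken mouse by mouse, the median change of the list ran from 0.11 to 2.25 on the log2 scale, and lay above 0 in all 29 mice.

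Non-classical monocytes patrol the vessel wall. Of 16 genes on their list, 12 were higher and 1 lower, with a median log2 fold change of 0.39. In single mice the median change of the list ran from -0.32 to 1.16 and was above 0 in 22 of 29. Cx3cr1, the fractalkine receptor that marks patrolling monocytes, ranged from 5.95 to 16.3 CPM (median 8.52) on Day 4 and from 6.67 to 20.2 CPM (median 12.5) on Day 9. Most of its Day 9 libraries lay within the Day 4 range, and it was higher in 23 of 29 mice by 0.48 ± 0.084 (log2 fold change ± SE; adjusted p = 1.51e-05). Cebpb, a transcription factor required for survival of these cells and active in other myeloid cells, was the member with the smallest p (log2 fold change 1.11, adjusted p = 8.85e-11). The lower member was Spn, the leukosialin CD43, which T cells also carry (log2 fold change -0.18, adjusted p = 7.56e-04).

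**Figure D2:**
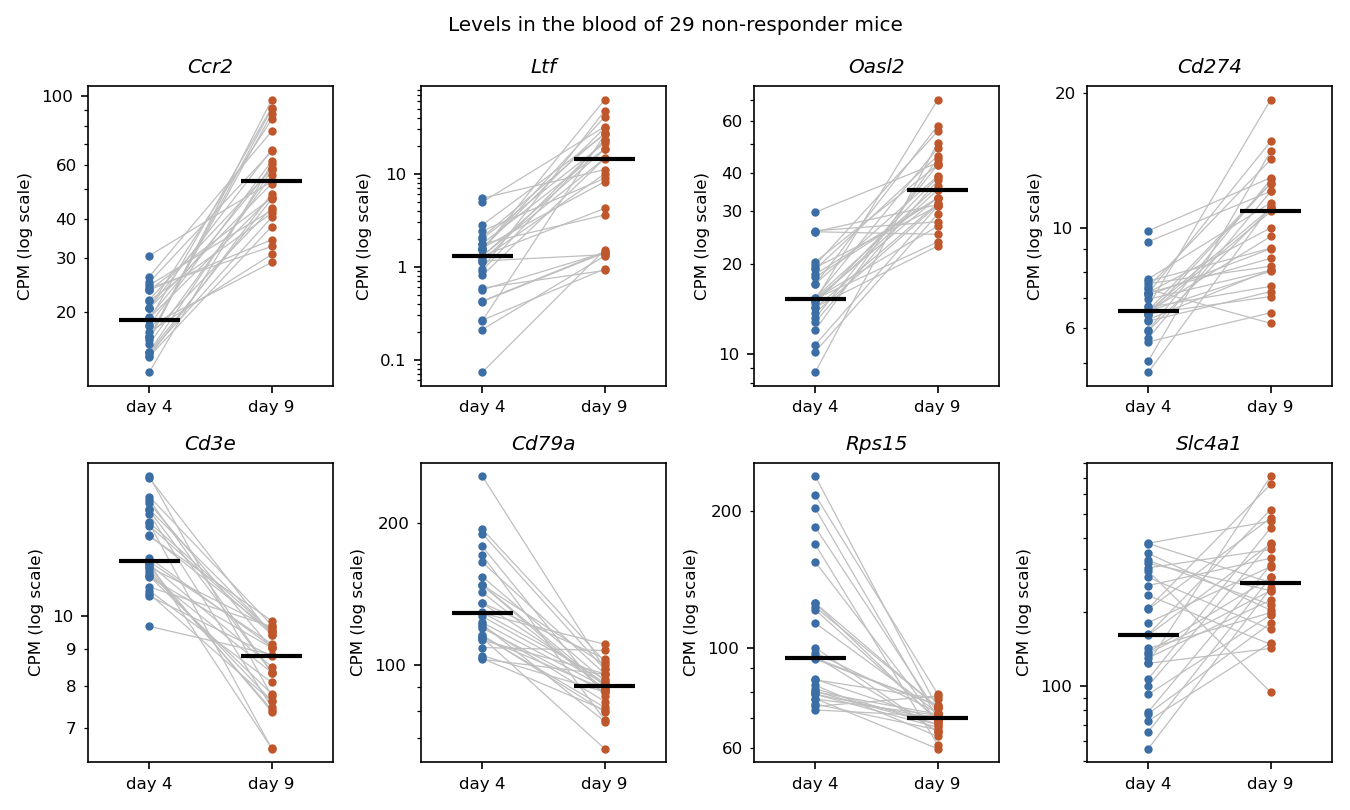
CPM (y axis, log scale) of 8 genes in 29 non-responders on Day 4 and Day 9, with one point per library, grey lines joining the libraries of a mouse and black bars at the medians. Ccr2, Ltf and Oasl2 lie higher on Day 9 and Cd3e, Cd79a and Rps15 lower, while the lines of Slc4a1 run in both directions.

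Neutrophil transcripts also rose. All 15 tested members of the specific and gelatinase granule list and 21 of 22 members of the mature neutrophil list were higher, with median log2 fold changes of 1.00 and 1.04. Lactoferrin, Ltf, which is stored in specific granules and made while neutrophils mature in the marrow, ranged from 0.0731 to 5.46 CPM (median 1.30) on Day 4 and from 0.911 to 62.8 CPM (median 14.6) on Day 9. The days overlapped, with 19 Day 9 libraries above the highest Day 4 library, and the gene rose in every mouse by 3.18 ± 0.29 (log2 fold change ± SE; adjusted p = 1.52e-10). The tag groups differed in level on both days, with overlap. On Day 4 the 7 mice with 4-digit tags were at 0.0731 to 0.589 CPM and the 22 with 3-digit tags at 0.262 to 5.46 CPM. On Day 9 they were at 0.911 to 1.52 CPM and at 1.35 to 62.8 CPM. The 19 libraries above the highest Day 4 library all came from 3-digit mice. The calprotectin subunits S100a8 and S100a9, abundant proteins of the neutrophil cytosol, rose in 28 of 29 mice each. S100a9 ranged from 30.9 to 111 CPM (median 66.9) on Day 4 and from 79.7 to 252 CPM (median 140.3) on Day 9 and changed by 1.10 ± 0.12 (log2 fold change ± SE; adjusted p = 5.04e-09). S100a8 changed by 1.00 ± 0.12 (log2 fold change ± SE; adjusted p = 2.17e-08). The receptor of granulocyte colony-stimulating factor, Csf3r, rose from a median of 53.6 to 93.9 CPM (log2 fold change 0.89, adjusted p = 4.59e-09). The chemokine receptor Cxcr2, through which neutrophils leave the marrow, rose in 27 of 29 mice (log2 fold change 0.84, adjusted p = 7.33e-08). The granule gene Ngp and the collagenase Mmp8 rose as well (log2 fold change 1.39, adjusted p = 9.37e-10, and log2 fold change 1.00, adjusted p = 2.16e-08). Retnlg, a resistin-like protein of mature neutrophils, was the member that missed the threshold, with a log2 fold change of 0.28 (adjusted p = 0.0524), and DESeq2 and limma-voom called it higher. Of 6 azurophil granule genes, which are made earliest in neutrophil development, Prtn3 alone passed the filter on low counts, at medians of 0.0462 to 0.302 CPM. None of its Day 4 libraries and 24 of its Day 9 libraries reached the level that the filter asks for, so no fold is given.

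Genes of innate sensing and of inflammation changed together with these markers. Of 16 inflammasome and pyroptosis genes, 15 were higher, with a median log2 fold change of 0.80, and Pycard was not called. Il1b, whose product is released after inflammasome cleavage, ranged from 4.76 to 23.6 CPM (median 10.6) on Day 4 and from 13.9 to 65.4 CPM (median 27.9) on Day 9. It rose in all 29 mice by 1.35 ± 0.13 (log2 fold change ± SE; adjusted p = 3.52e-10), and 22 Day 9 libraries exceeded every Day 4 library. The sensor Nlrp3 rose from a median of 3.10 to 5.92 CPM (log2 fold change 1.07, adjusted p = 1.09e-09), the caspase Casp4, which senses cytosolic lipopolysaccharide, from 1.95 to 3.50 CPM (log2 fold change 0.88, adjusted p = 2.05e-11), and Mefv from 1.79 to 5.16 CPM (log2 fold change 1.56, adjusted p = 1.93e-11). In the Toll-like receptor pathway, 16 of 24 genes were higher and 2 lower. Tlr8, an endosomal receptor of single-stranded RNA, ranged from 1.20 to 2.99 CPM (median 1.86) on Day 4 and from 2.84 to 7.68 CPM (median 4.41) on Day 9, with 28 Day 9 libraries above all of Day 4, and changed by 1.19 ± 0.088 (log2 fold change ± SE; adjusted p = 1.32e-11). The receptors Tlr2, Tlr4 and Tlr13 and the adaptor Myd88 had log2 fold changes of 0.93, 0.73, 0.86 and 0.61. The C-type lectin Clec4e, which binds mycobacterial glycolipids and products of dead cells, had a log2 fold change of 1.60 (adjusted p = 4.52e-12) and rose in all 29 mice.

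Most cytokine and cytokine receptor genes were higher. Of 33 cytokine and receptor genes, 28 were higher and 3 lower, with a median log2 fold change of 0.63. The higher members included Csf2rb, the common beta chain of the GM-CSF receptor (13.8 to 28.5 CPM, log2 fold change 1.03, adjusted p = 5.76e-11), its partner Csf2ra (log2 fold change 0.90, adjusted p = 2.70e-10), Il13ra1 (log2 fold change 1.08, adjusted p = 3.50e-11) and the leukemia inhibitory factor receptor Lifr (log2 fold change 1.00, adjusted p = 1.87e-11). Il21r, a receptor of lymphocytes, fell in all 29 mice (log2 fold change -0.31, adjusted p = 9.01e-10). The chemokine Ccl9, which attracts myeloid cells, ranged from 4.02 to 7.75 CPM (median 5.57) on Day 4 and from 7.92 to 21.4 CPM (median 11.8) on Day 9 with no overlap between the days (log2 fold change 1.12, adjusted p = 3.01e-10). Its receptor Ccr1 rose in 28 of 29 mice (log2 fold change 1.10, adjusted p = 2.98e-10). Of 14 complement genes tested, 9 were higher, 2 lower and 3 not called, beside 24.8% higher and 25.0% lower of all genes. Cfb, a protease of the alternative pathway, rose from 0.397 to 1.32 CPM at the median (log2 fold change 1.84, adjusted p = 1.73e-10).

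Type I interferon response genes rose in most mice. Of 48 genes of the list, all of which were tested, 38 were higher and 2 lower (Ly6e and Pml), with a median log2 fold change of 0.39. The promoters of 36 of these genes are in the RefSeq table used (GRCm38.p6), and in the 250 bases before the start 14 of the 36 (38.9%) held the core of the interferon-stimulated response element, searched as GAAANNGAAA or TTTCNNTTTC read on the strand of the gene (the same core on either strand), where matches that share bases were kept. The core was in 2.98% of all 32851 promoters of that set, and among the tested genes with a promoter in 4.96% of those called higher, 2.94% of those called lower and 3.03% of those not called. It was also in 11 of 22 promoters of the interferon gamma list (50.0%) and 3 of 14 of MHC class I genes (21.4%), lists whose changes were smaller or near 0 at the median. These shares are a description of the sequences, and no binding was measured. The 150 bases before the start are shown for the called members of the list with the smallest p whose window holds the core, with the matches in capitals. The window of Oas1g is chr5:120887614-120887763, minus strand, that of Ifi211 chr1:173913047-173913196, minus strand, that of Trim30a chr7:104465194-104465343, minus strand and that of Oas3 chr5:120777660-120777809, minus strand, each written 5′ to 3′ on the strand of its gene.
Oas1g: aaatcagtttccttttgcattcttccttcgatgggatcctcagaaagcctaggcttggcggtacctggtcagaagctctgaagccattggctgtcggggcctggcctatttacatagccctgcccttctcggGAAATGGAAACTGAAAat
Ifi211: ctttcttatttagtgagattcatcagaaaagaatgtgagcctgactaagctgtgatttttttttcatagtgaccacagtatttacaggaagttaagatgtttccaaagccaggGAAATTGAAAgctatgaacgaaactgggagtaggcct
Trim30a: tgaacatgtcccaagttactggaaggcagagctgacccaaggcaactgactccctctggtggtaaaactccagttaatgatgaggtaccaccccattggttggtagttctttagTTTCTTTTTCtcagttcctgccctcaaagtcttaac
Oas3: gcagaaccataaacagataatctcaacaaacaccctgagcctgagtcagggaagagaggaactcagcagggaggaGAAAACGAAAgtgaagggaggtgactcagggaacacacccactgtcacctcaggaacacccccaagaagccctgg
The core lies on the gene's own strand in Oas1g, where 2 matches share bases, in Ifi211 and in Oas3, and on the opposite strand in Trim30a.

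Oas1g, a member of the oligoadenylate synthetase family whose products activate RNase L, ranged from 0.142 to 0.812 CPM (median 0.458) on Day 4 and from 0.755 to 2.52 CPM (median 1.37) on Day 9. The level rose in all 29 mice, with 25 Day 9 libraries above the Day 4 range, by 1.55 ± 0.13 (log2 fold change ± SE; adjusted p = 5.20e-11). Because the family consists of close copies, reads may be divided between Oas1g and Oas1a, which had medians of 3.89 to 6.14 CPM (log2 fold change 0.70, adjusted p = 1.46e-06). Oasl2, which has a ubiquitin-like domain and acts against viruses, was the family member at higher counts and ranged from 8.71 to 29.7 CPM (median 15.3) on Day 4 and from 22.9 to 70.4 CPM (median 35.3) on Day 9. It rose in 28 of 29 mice by 1.18 ± 0.11 (log2 fold change ± SE; adjusted p = 1.19e-10). Ifi211, a DNA-sensing protein of the p200 family, went from 2.35 to 5.20 CPM (log2 fold change 1.24, adjusted p = 4.22e-10), Oas3 from 13.3 to 21.8 CPM (log2 fold change 0.68, adjusted p = 1.35e-06), and Trim30a, which limits Toll-like receptor signaling, from 25.7 to 31.1 CPM (log2 fold change 0.35, adjusted p = 7.01e-07). The ubiquitin-like modifier Isg15 ranged from 20.6 to 121 CPM (median 51.4) on Day 4 and from 35.8 to 189 CPM (median 79.7) on Day 9, rose in 22 of 29 mice and changed by 0.67 ± 0.17 (log2 fold change ± SE; adjusted p = 0.00153). Mouse by mouse, the median change of the list ran from -0.13 to 1.11, with the lowest and the highest value in the same mice as for the classical monocyte list, and was above 0 in 27 of 29 mice. Of 29 interferon gamma response genes, 18 were higher and 3 lower, by small amounts (median log2 fold change 0.19). The factor Irf1 went from 16.8 to 22.6 CPM (log2 fold change 0.44, adjusted p = 1.48e-09), and the receptor chains Ifngr1 and Ifngr2 had log2 fold changes of 0.33 and 0.46. On log2(TPM + 1), 17 of the type I list and 0 of the interferon gamma list were called higher.

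Of 26 checkpoint and costimulation genes, 10 were higher and 7 lower, beside 24.8% and 25.0% of all genes, so that the share lower was near that of all genes, and the median log2 fold change was -0.0078. Cd274 ranged from 4.77 to 9.85 CPM (median 6.55) on Day 4 and from 6.13 to 19.3 CPM (median 10.9) on Day 9. The level rose in 28 of 29 mice and exceeded the Day 4 range in 16, with a change of 0.61 ± 0.08 (log2 fold change ± SE; adjusted p = 1.40e-07). All 16 of those libraries came from mice with 3-digit tags. The 7 mice with 4-digit tags reached at most 8.56 CPM on Day 9, and their log2 fold change, fitted alone, was 0.18 (adjusted p = 0.0870). Pdcd1, the target of the antibody, was near the lower limit of these libraries. Pdcd1 ranged from 0 to 0.434 CPM (median 0.161) on Day 4 and from 0.0226 to 0.276 CPM (median 0.131) on Day 9. The days overlapped. Ctla4, another inhibitory receptor of T cells used as a drug target, rose from 0.690 to 0.850 CPM in 20 of 29 mice (log2 fold change 0.38, adjusted p = 0.018). The higher members also included Cd80, Cd86, Havcr2, Vsir and the ectonucleotidase Entpd1 (log2 fold change 0.58, adjusted p = 4.25e-08), which myeloid cells carry. The lower ones included Cd28, the costimulatory receptor of T cells (log2 fold change -0.46, adjusted p = 9.54e-10), Cd27 (log2 fold change -0.41, adjusted p = 1.90e-08), Cd40lg (log2 fold change -0.73, adjusted p = 6.26e-08) and the transcription factor Tox (log2 fold change -0.57, adjusted p = 1.90e-08).

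Most T cell genes fell. Of 22 genes of the T cell receptor complex and its signaling, 21 were lower, beside 25.0% of all genes, with a median log2 fold change of -0.49. Cd3e, a chain of the receptor complex, ranged from 9.66 to 15.6 CPM (median 11.9) on Day 4 and from 6.54 to 9.84 CPM (median 8.79) on Day 9. All 29 mice fell, 27 Day 9 libraries lay below every Day 4 library, and the change was -0.55 ± 0.042 (log2 fold change ± SE; adjusted p = 1.62e-11). Cd6, a surface receptor that tunes T cell activation, changed by -0.55 ± 0.042 (log2 fold change ± SE; adjusted p = 1.50e-11), and 25 of its Day 9 libraries lay below the Day 4 range. Cd3d and the receptor alpha constant gene Trac had log2 fold changes of -0.72 and -0.64, and the kinase Zap70 one of -0.56. The member that rose was the adaptor Lcp2 (log2 fold change 0.14, adjusted p = 0.0189), which myeloid cells and platelets use too. The naive T cell list had 17 of 19 members lower and none higher. Cd4 ranged from 13.0 to 28.3 CPM (median 15.7) on Day 4 and from 8.64 to 13.9 CPM (median 11.0) on Day 9 and changed by -0.68 ± 0.059 (log2 fold change ± SE; adjusted p = 8.79e-11). Cd8a fell from 15.0 to 11.9 CPM (log2 fold change -0.40, adjusted p = 3.87e-10). The interleukin-7 receptor Il7r (30.4 to 21.2 CPM, log2 fold change -0.55, adjusted p = 5.70e-11), the lymph node homing receptor Ccr7 (39.3 to 26.9 CPM, log2 fold change -0.51, adjusted p = 1.26e-10) and the transcription factor Tcf7 (52.1 to 38.7 CPM, log2 fold change -0.44, adjusted p = 6.03e-10) fell as well. The median change of the receptor list in single mice ran from -0.93 to -0.13 and was below 0 in all 29, while that of the naive list was above 0 in 1 mouse and that of the regulatory T cell list in 3. Of 10 regulatory T cell genes, 6 were lower and 2 higher, beside 25.0% lower and 24.8% higher of all genes. The share higher was thus not above that of all genes. Foxp3 went from 2.25 to 1.84 CPM (log2 fold change -0.35, adjusted p = 4.64e-05). The higher Nrp1 (log2 fold change 0.75, adjusted p = 2.14e-09) is known also from myeloid and dendritic cells.

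Of 29 cytotoxic T and NK cell genes tested, 6 were higher, 8 lower and 15 not called, which is near the 24.8% higher and 25.0% lower of all genes, and the median log2 fold change was -0.0095. The NK cell receptor Ncr1 ranged from 2.68 to 6.47 CPM (median 4.83) on Day 4 and from 2.79 to 6.78 CPM (median 4.57) on Day 9 and gave -0.0095 ± 0.061 (log2 fold change ± SE; adjusted p = 0.913). Granzyme A, Gzma, ranged from 9.74 to 40.3 CPM (median 18.5) on Day 4 and from 12.4 to 24.7 CPM (median 16.9) on Day 9 and gave -0.072 ± 0.075 (log2 fold change ± SE; adjusted p = 0.444). In both genes the days overlapped and 13 of 29 mice rose. Perforin, Prf1, which opens the target membrane, was lower (log2 fold change -0.25, adjusted p = 0.00722), as were the NK receptor Klrb1c (log2 fold change -0.27, adjusted p = 7.76e-04) and the interleukin-2 receptor beta chain Il2rb (log2 fold change -0.29, adjusted p = 3.11e-05). The chemokine receptor Cxcr6, carried by memory and resident T cells, ranged from 1.20 to 2.38 CPM (median 1.79) on Day 4 and from 0.905 to 2.08 CPM (median 1.33) on Day 9 and fell in 25 of 29 mice by -0.36 ± 0.065 (log2 fold change ± SE; adjusted p = 2.91e-05). Among the higher genes were Klrc2, an activating NK receptor chain (log2 fold change 0.46, adjusted p = 1.47e-05), Gzmb (log2 fold change 0.22, adjusted p = 7.53e-04) and the transcription factor Zeb2 (log2 fold change 0.50, adjusted p = 2.75e-09), which monocytes express too.

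B cell transcripts fell as well. Of 28 mature B cell genes, 23 were lower and 2 higher (Fcgr2b and Cd24a), with a median log2 fold change of -0.27. Cd79a, a signaling chain of the B cell receptor, ranged from 103 to 251 CPM (median 129) on Day 4 and from 66.5 to 111 CPM (median 90.2) on Day 9. All 29 mice fell and 26 Day 9 libraries lay below the Day 4 range, with a change of -0.59 ± 0.059 (log2 fold change ± SE; adjusted p = 1.11e-09). Ms4a1, which encodes CD20, went from 93.6 to 72.0 CPM (log2 fold change -0.41, adjusted p = 1.89e-08), and the lower gene with the largest fold in the list was Vpreb3 (3.35 to 1.91 CPM, log2 fold change -0.75, adjusted p = 1.90e-10). The heavy chain constant gene Ighm, of naive B cells, fell in all 29 mice from 342 to 249 CPM (log2 fold change -0.47, adjusted p = 2.82e-09). The switched isotype Ighg1, at far lower counts, ranged from 0.0274 to 0.488 CPM (median 0.203) on Day 4 and from 0.170 to 1.03 CPM (median 0.496) on Day 9. Jchain, which links secreted immunoglobulin, rose in 24 of 29 mice (log2 fold change 0.50, adjusted p = 2.35e-04). Of 22 plasma cell genes 7 were higher and 4 lower, not far from the 24.8% and 25.0% of all genes. MHC class II genes, abundant in B cells, had 7 of 12 members lower and 2 higher, among them the invariant chain Cd74 (599 to 455 CPM, log2 fold change -0.55, adjusted p = 2.17e-07).

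Most genes of cytosolic ribosomal proteins were lower. Of 77 cytosolic ribosomal protein genes, 69 were lower and none higher, with a median log2 fold change of -0.40. Rps15 ranged from 72.9 to 239 CPM (median 94.8) on Day 4 and from 59.8 to 79.1 CPM (median 69.8) on Day 9. Its Day 4 libraries spread widely and its Day 9 libraries little, 21 of 29 Day 9 libraries lay below all of Day 4, and the change was -0.59 ± 0.091 (log2 fold change ± SE; adjusted p = 2.15e-06). The fall was uneven between mice, whose medians ran from -1.29 to 0.16. In the 14 mice whose haemoglobin share fell, the median over mice was -0.66, and in the 15 whose share rose it was -0.06. In the 7 mice with 4-digit tags alone, 6 of the ribosomal genes were called lower, beside 9.11% of all genes there, and in the 22 with 3-digit tags 73, beside 25.3%. The ribosomal count in the 4-digit mice thus lay near the share of all genes. Of 46 spliceosome genes, 24 were lower and 10 higher, beside 25.0% lower and 24.8% higher of all genes. The share higher was thus near that of all genes. The median log2 fold change was -0.13, and Prpf19, a ubiquitin ligase of the spliceosome, was lower in all 29 mice (log2 fold change -0.33, adjusted p = 5.21e-10). The respiratory chain and ATP synthase had 21 of 55 genes lower and 3 higher, beside 25.0% lower and 24.8% higher of all genes. The direction of this list varied with the haemoglobin share. Its median was above 0 in 11 of the 15 mice whose share rose (median over mice 0.097). In the mice whose share fell it was below 0 in 13 of 14 (median over mice -0.27). In the mice with 4-digit tags it was above 0 in 5 of 7. Outside the lists, the mitochondrially encoded gene mt-Nd4l, a subunit of complex I, was the lower gene with the largest fold that met the naming rule (16.5 to 9.99 CPM, log2 fold change -0.91, adjusted p = 3.67e-07).

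Transcripts of maturing red cells rose on average, in part of the mice. Of 30 red cell maturation genes, 22 were higher and none lower, with a median log2 fold change of 0.55, while the 5 haemoglobin genes tested had a median log2 fold change of 0.059. Slc4a1, the anion exchanger band 3 of the red cell membrane, ranged from 56.0 to 379.6 CPM (median 161) on Day 4 and from 94.8 to 709 CPM (median 263) on Day 9. The days overlapped, 22 of 29 mice rose, and the change was 0.76 ± 0.19 (log2 fold change ± SE; adjusted p = 0.00146). Epb42, which anchors band 3 to the membrane skeleton, had medians of 12.4 to 22.0 CPM (log2 fold change 1.01, adjusted p = 4.17e-05), and the transferrin receptor Tfrc rose in 24 of 29 mice (log2 fold change 0.55, adjusted p = 2.15e-05). The list moved with the haemoglobin share. Its median rose in all 15 mice whose share rose and in 6 of the 14 whose share fell. Platelet genes varied in the same way. Of 20 platelet genes 4 were lower, a share not above the 25.0% of all genes, and none was higher. The lower ones included the chemokine Pf4, which ranged from 32.3 to 260.0 CPM (median 60.2) on Day 4 and from 30.6 to 93.2 CPM (median 53.9) on Day 9 (log2 fold change -0.36, adjusted p = 0.0241). The platelet median was above 0 in 10 of the 15 mice whose haemoglobin share rose and in 1 of the 14 whose share fell, and it ran from -2.02 to 0.90 between mice. Without the mouse block 17 platelet genes were called lower, and the count ran from 2 to 10 when single mice were left out.

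**Figure D3:**
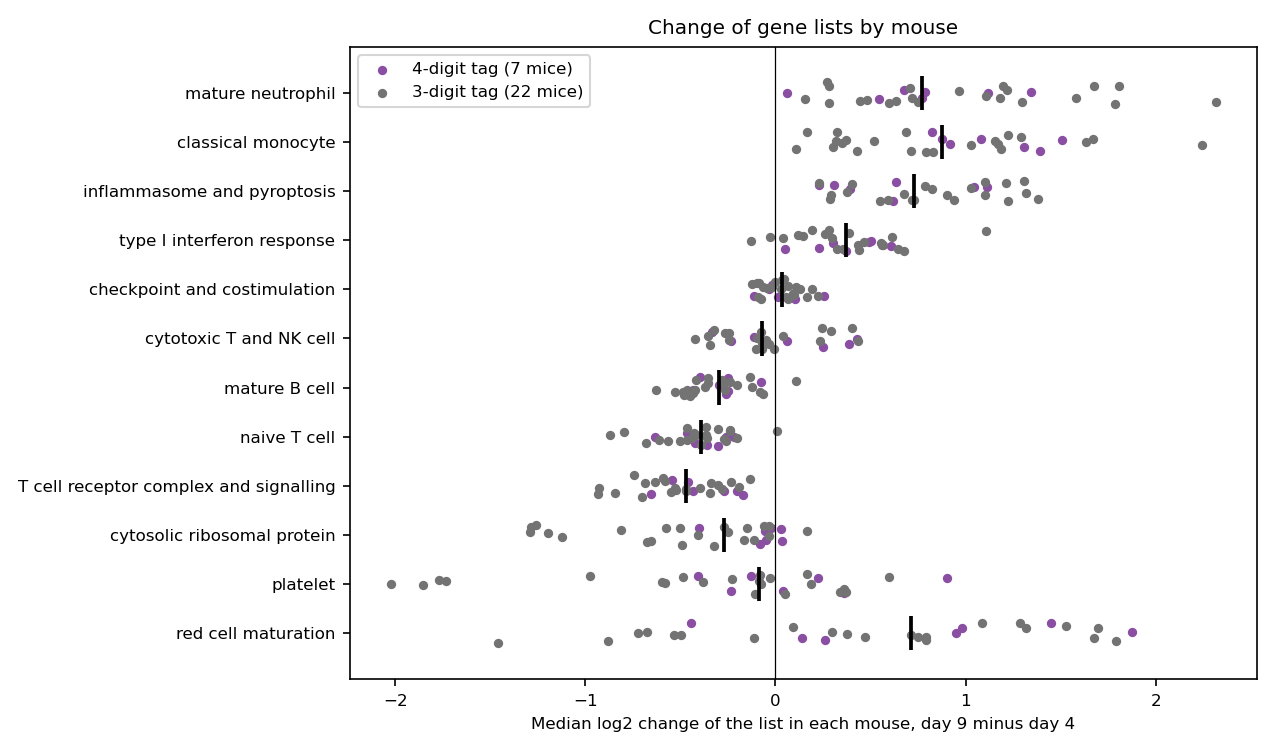
Median log2 change of selected gene lists from Day 4 to Day 9 (x axis) in each of 29 non-responders, with one point per mouse, colored by the digits of its tag, and black bars at the medians over mice. The mature neutrophil, classical monocyte and inflammasome lists lie above 0 and the T cell receptor list below 0 in every mouse, whereas the platelet and red cell lists lie on both sides.

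Some genes of low level were high in a few mice on Day 9. Osteopontin, Spp1, a secreted matrix protein that macrophages also make, ranged from 0 to 0.186 CPM (median 0.0747) on Day 4 and from 0.0828 to 90.3 CPM (median 0.407) on Day 9. Ptgs2, the inducible cyclooxygenase, had medians of 0.0589 to 0.314 CPM. In the list of 18 myeloid suppression genes, which holds Ptgs2, members that also passed the filter on Day 4 libraries alone and rose included Wfdc17 (1.89 to 5.25 CPM, log2 fold change 1.55, adjusted p = 2.96e-10), the signaling inhibitor Socs3 (7.77 to 15.5 CPM, log2 fold change 0.98, adjusted p = 3.92e-10) and the lipid receptor Trem2 (0.307 to 0.831 CPM, log2 fold change 1.56, adjusted p = 1.34e-09).

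Epithelial transcripts were low at the median and reached higher levels in single Day 9 libraries. Krt5 had medians of 0 and 0.01 TPM on Days 4 and 9 and reached 7.19 TPM on Day 9. Krt14 had medians of 0 and 0.04 TPM and reached 25.67 TPM on Day 9. Of 22 mucosal epithelium and carcinoma genes 10 passed the filter on low counts. Krt6a, a keratin of stressed and mucosal epithelium, ranged from 0 to 1.22 CPM (median 0.185) on Day 4 and from 0 to 31.2 CPM (median 1.55) on Day 9. The 7 mice with 4-digit tags were at 0 CPM on Day 4 and reached at most 0.661 CPM on Day 9. Clca3b ranged from 0 to 1.42 CPM (median 0.434) on Day 4 and from 0 to 24.9 CPM (median 4.82) on Day 9. S100a14 had medians of 0.177 to 0.913 CPM and Krt13 of 1.15 to 2.97 CPM, and Epcam was not called (log2 fold change 0.40, adjusted p = 0.11). Col3a1 and Col1a1, collagens of fibroblasts, had medians of 0.446 to 1.52 CPM and 1.12 to 2.90 CPM. How these transcripts entered the blood sample was not tested. The basophil protease Mcpt8 ranged from 0.0275 to 0.334 CPM (median 0.0844) on Day 4 and from 0.123 to 2.48 CPM (median 0.438) on Day 9, while Ms4a2, the beta chain of the IgE receptor, rose in 27 of 29 mice (log2 fold change 1.02, adjusted p = 7.19e-08). The eosinophil receptor Ccr3 was not called (log2 fold change -0.31, adjusted p = 0.0778).

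Immediate early genes and proliferation genes were examined because handling of blood and dividing cells can each appear in such samples. Of 23 immediate early genes, 15 were higher and 2 lower, with Fos at 1.78 to 6.17 CPM (log2 fold change 1.51, adjusted p = 2.64e-10) and Dusp1 at 6.43 to 15.7 CPM (log2 fold change 1.26, adjusted p = 3.50e-11). Their part in the other changes was not tested. Of 33 proliferation genes, 14 were higher and 9 lower, beside 24.8% and 25.0% of all genes, so that the share lower was near that of all genes. The list median was above 0 in 14 of the 15 mice whose haemoglobin share rose and in 5 of the 14 whose share fell. Mki67 rose in 27 of 29 mice from 5.23 to 7.96 CPM (log2 fold change 0.65, adjusted p = 2.22e-07). The replication helicase genes Mcm2, Mcm5 and Mcm7 had log2 fold changes of -0.32, -0.37 and -0.24.

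The remaining lists are set beside the 24.8% higher and 25.0% lower of all genes. Of 10 Fc receptor genes 6 were higher and 3 lower, of 11 dendritic cell genes 7 and 1, and of 16 chemokine receptors 8 and 4. The phagocyte oxidase, which makes superoxide, had 4 of 7 subunit genes higher and 2 lower. MHC class I genes stayed near 0 at the median (log2 fold change 0.012), with 2 of 15 higher and 3 lower. Of 20 heat shock chaperone genes 3 were higher and 10 lower, and of 10 immunoglobulin constant genes 4 and 5. The share lower was at or under that of all genes for dendritic cell genes, chemokine receptors and MHC class I genes, and the share higher was under it for MHC class I and heat shock chaperone genes.

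The mice fall into those with 4-digit tags (7) and those with 3-digit tags (22), which may mark separate cohorts. With each group fitted alone, 2777 genes of 12079 tested were called in the 4-digit mice (23.0%) and 6161 of 12587 in the 3-digit mice (48.9%), and 4 of the genes called in the 4-digit mice and over all mice had opposite signs. A test of whether the change differed between the tag groups called none of 12537 genes (0.00%) with edgeR, with 2245 at an unadjusted p under 0.05 and a lowest adjusted p of 0.0630. All 23 classical monocyte genes were called higher in either group, and 19 and 20 of the 22 T cell receptor genes lower. Genes named here that were tested and not called in the 4-digit mice alone included Cd274, Ctla4, Foxp3, Tox, Prf1, Klrb1c, Il2rb, Klrc2, Cxcr6, Cd74, H2-Ab1, H2-Aa, H2-Eb1, mt-Nd4l, Pf4, Ifit1bl1, Mcm5 and Mcm7.

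Whether the change from Day 4 to Day 9 was particular to non-responders was tested against the 15 responders, which shared strain, tumor line and antibody. In responders alone, 2668 of 11736 genes were called (22.7%), 1352 higher and 1316 lower. The test of the difference between the changes, over 88 libraries of 44 mice, called none of 13218 genes (0.00%) with edgeR at a lowest adjusted p of 0.272, with 575 at an unadjusted p under 0.05. limma-voom called none either, with 533 at an unadjusted p under 0.05. The median standard error of that difference was 0.13 on the log2 scale, and missing the threshold does not show that the groups changed alike. The classical monocyte list had a median log2 fold change of 0.66 in responders beside 0.93 in non-responders, the mature neutrophil list 0.56 beside 1.04, and the T cell receptor list -0.47 beside -0.49. The gene with the smallest p was Cxcr6, whose change in non-responders minus that in responders was -0.55 ± 0.12 (SE, adjusted p = 0.272). Its log2 fold change was -0.36 in non-responders and 0.20 in responders. The next genes had adjusted p-values of 0.999, among them the transcription factor Gata3 (difference -0.44 ± 0.13), the potassium channel Kcnk6 (difference 0.51 ± 0.14) and the interferon-induced Ifit1bl1 (difference 0.44 ± 0.13). Of the responders, 11 of 15 had 4-digit tags, against 7 of 29 non-responders, so response and tag group are partly confounded.

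**Figure D4:**
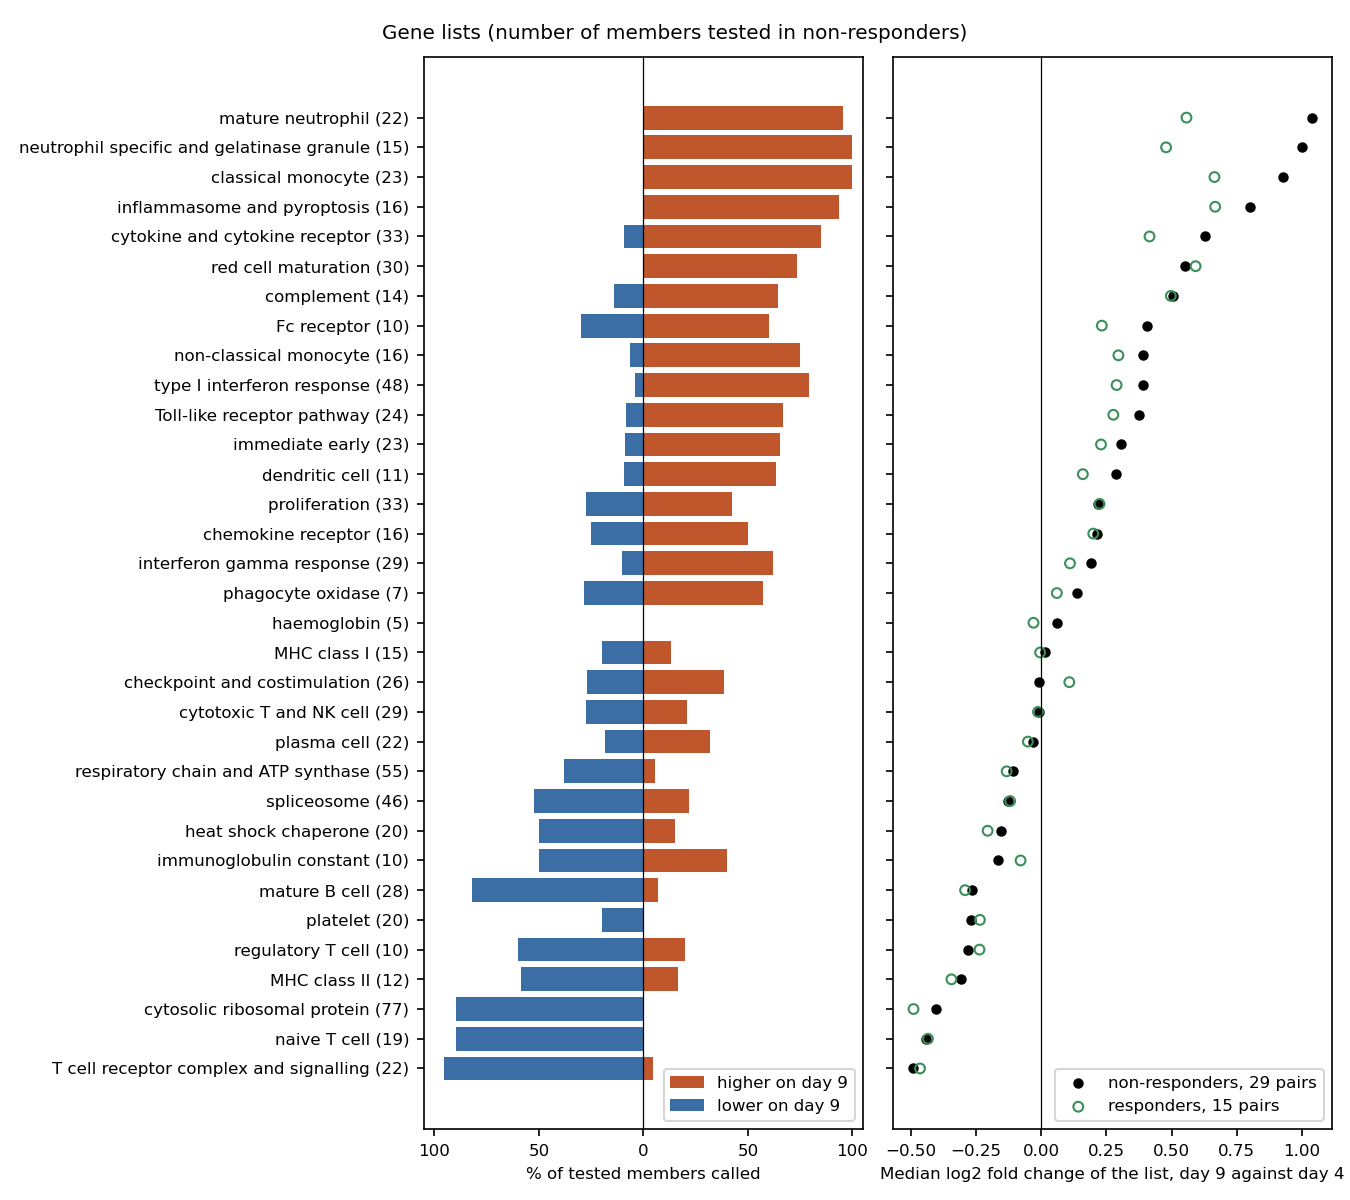
Gene lists with at least 5 members tested and at most 2 that Day 4 libraries alone would not have let pass the filter on low counts, giving the percentage of members called higher or lower on Day 9 in non-responders (left panel) and the median log2 fold change of each list in non-responders and in responders (right panel). The monocyte, neutrophil and inflammasome medians lie to the right of 0 and the T cell receptor, mature B cell and ribosomal medians to the left in both response groups.

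The median levels on the later days are given as a description, without a test, for the 29 paired mice on Days 4 and 9 and for all libraries labelled non-responder on Day 17 (29) and Day 24 (30), which are not the same set of mice. Ccr2 had medians of 18.8, 53.0, 27.8 and 23.0 CPM on Days 4, 9, 17 and 24. Ltf had 1.30, 14.6, 0.894 and 1.64 CPM, and Oasl2 15.3, 35.3, 30.4 and 17.0 CPM. These medians fell back after Day 9, at first little for Oasl2. Cd3e, a lower gene, went through 11.9, 8.79, 9.58 and 10.3 CPM. Ighg1 was at 0.203, 0.496, 1.11 and 1.24 CPM.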

How the data were processed

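The labels give mm10 as genome build and STAR as aligner, while the aligner's version and the counting tool are not given in the sources used here. The authors deposited a table of estimated counts per gene, of which 3.14% of the values are not whole, and a table of TPM values, normalized for gene length and library total. Polyadenylated RNA was used, libraries were made with a SMARTer kit, and molecular identifiers are not mentioned. All 55450 gene IDs matched GENCODE release M21 and 0 value columns were left unused.

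Estimated counts were rounded, filtered with filterByExpr, scaled by TMM and tested in edgeR 4.0.16 (R 4.3.3), with day and mouse in the model for non-responders alone. The difference from responders was a day by response interaction with the mouse as block. limma 3.58.1 and DESeq2 1.42.0 served as alternatives, the latter keeping missing adjusted p-values missing, and scipy 1.17.1 was used with numpy 2.4.6 for a permutation test with 100000 resamples. The pairing comes from the tag of the animal. The deviations of the Day 4 and Day 9 libraries of a mouse correlated at 0.11 on average, from -0.20 to 0.37, and those of different mice at -0.0027. The correlation was over 0.1 in 14 of 29 mice, and 1 Day 4 library correlated best with its own Day 9 library, so the pairing rests on the tag and not on these values. On simulated counts for this comparison (12537 genes), the test recovered 38 of 50 genes changed 1.25-fold, 48 of 50 changed 1.5-fold, 49 of 50 changed 2-fold and 50 of 50 changed 4-fold, with 6 false calls. The simulated libraries had no effect of mouse or of haemoglobin share. Few genes were changed, equally in both directions, and none of low mean count. These figures are thus not the error rate or power of the real comparison.

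Members and the 39 gene lists were chosen with earlier results of these data known. Genes named in the text were the 10 with the smallest p in each direction, the 5 with the largest fold in each direction (average of at least 1 log2 CPM, the same direction in 25 of 29 mice), up to 6 called members of each list by p, cell type markers, Pdcd1, Cd274 and Ctla4, and the 5 genes in each direction with the smallest p for the difference from responders, predicted genes left out. Genes whose days did not overlap, the members of a list that were not called or moved against the rest of it, and Cd80, Cd86, Havcr2, Vsir, Gzmb, Isg15 and Oas1a were named after their values were seen. Results of some genes are not reported here. Promoter sequences came from RefSeq (GRCm38.p6), and shown were members called, with the smallest p, that hold the response element. Alternatives changed the tool, scaling, filter, unit, block or mice, and the test between tag groups was added after seeing the data. The rule that genes which Day 4 libraries alone would not have let pass the filter are given by level only, and that lists with more than 2 of them get no counts of called members, was also set after the values were seen. Lists that are counted hold up to 2 such genes.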

Additional observations from a re-analysis of the deposited data

How the results depend on the processing

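The number of changed genes stayed within 1.5 times of 6237 with DESeq2, limma-voom, other size factors, haemoglobin removed before scaling, both other filters, the 3-digit mice alone, the mouse with conflicting labels removed (6230) and each mouse left out (5976 to 6278 in all, 2981 to 3260 higher and 2858 to 3172 lower). Without the mouse as replicate block 6343 genes were called, 2957 higher and 3386 lower, of which 5957 were shared with the paired fit, so the pairing moved that count little. Calls were fewer with a 1.5-fold change also required (1140, with 983 higher and 157 lower), on log2(TPM + 1) (1684, with 1028 higher and 656 lower), on log2(TPM + 0.1) (1682, with 1082 higher and 600 lower) and in the 7 mice with 4-digit tags (2777, with 1677 higher and 1100 lower). Fewer mice and the added fold requirement reduce calls by construction, and the cause on the TPM scale was not tested. Among genes called both there and over all mice, 4 had opposite signs in the 4-digit mice and none in the other settings. In the 4-digit mice the sign also turned for H2-Q6 (-0.074), Alox12 (0.046), Tubb1 (0.049), Atp5g3 (0.019) and Atp5o (0.0013), none of which is named above. Counts of list members moved by over 1.5 times in 180 combinations of list and setting other than leaving out mice and stayed within it in 834. With single mice left out such counts moved in 72 combinations and stayed in 2190. Among lists counted above, those that moved with single mice left out were the platelet, cytokine, complement and immediate early members lower and the MHC class I members higher, all of them small counts. Larger counts moved in other settings. They included the ribosomal members lower in the 4-digit mice, and the type I interferon and interferon gamma members higher on log2(TPM + 1). The difference from responders stayed at 0 genes in every setting run, with lowest adjusted p-values from 0.139 to 0.820. The mean change of the haemoglobin share ran from -0.026 to 0.836 percentage points with single mice left out and turned negative (-0.017 and -0.026) without either of 2 mice. Depth limits genes at a few counts, such as Pdcd1, Spp1 on Day 4 and the keratins.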
